A study of Mus musculus with 278 samples.

Results

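The 8 genes described here encode the oxytocin receptor (Oxtr), an inositol trisphosphate receptor (Itpr1), subunits of the L-type calcium channel (Cacna1c, Cacna2d1), an atypical sodium channel (Scn7a), the pore and the beta subunit of the BK potassium channel (Kcnma1, Kcnmb1) and the adhesion protein teneurin-2 (Tenm2). They were named as genes of excitability, adhesion and oxytocin response in mammary basal cells, and were chosen by their measured levels and shares in adult basal against adult luminal cells and by their levels in pregnancy basal-marked against adult basal cells. Both contrasts are therefore given as descriptions. They are 8 of 25136 genes with a current symbol that are neither mitochondrial nor ribosomal, and all 8 were among the 15313 genes with 3 or more cells at 1 CPM (count per 1e6 reads of a cell or group) or above.

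Single epithelial cells from the mammary glands of FVB/NJ mice, a strain given with no further allele, were captured on the Fluidigm C1 system, and each of the 278 libraries is 1 cell. The adult basal (112 cells) and adult luminal (43 cells) groups came from adult females and were sorted as lineage-negative CD29hi CD24+ and CD29lo CD24+ cells, and the pregnancy group (123 cells) is total epithelium of pregnant mice, not split by sort. No group was treated. Cells with at least 50000 reads were retained, which left 85 adult basal, 41 adult luminal and 96 pregnancy cells, with medians of 378479, 637857 and 215202 reads. The labels tie no cell to an animal, so the cells of a group are not replicates and no test between groups was possible. Values are reads summed over a group and scaled to its total, and intervals are exact 95% intervals that cover counting error only, since reads copied by PCR are not independent molecules.

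Basal cells of the mammary gland are myoepithelial: they wrap the ducts and alveoli and contract like smooth muscle. Oxytocin released at suckling binds its receptor on these cells, which acts through Gq proteins and phospholipase C to make inositol trisphosphate, and calcium is then released through inositol trisphosphate receptors. In smooth muscle, L-type channels admit further calcium when the membrane depolarises, and BK channels, opened by calcium and voltage, return the membrane towards rest. Teneurins are large transmembrane adhesion proteins that bind latrophilins on neighbouring cells.

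The defining basal markers matched the sort. All 6 basal markers (Krt5, Krt14, Krt17, Trp63, Acta2 and Myh11) had reads in adult basal cells, and 84 of the 85 cells held at least 3 of them at a depth of 50000 reads. Among adult luminal cells, 1 of 41 held 3 or more, and all 41 held at least 3 of 8 luminal markers. Luminal markers were also found in basal cells: 37 of 85 had reads of at least 3, and Epcam and Krt8 had reads in 85.9% and 64.7% of them. Of the markers of other cell types, summed levels in adult basal cells were 0.644 CPM for 5 endothelial markers, with Cdh5, Emcn and Kdr at 0, 10.9 CPM for 7 pericyte or vascular smooth muscle markers, with Rgs5, Kcnj8 and Higd1b at 0, and 6.63 CPM for 5 neuronal markers, with Snap25 and Stmn2 at 0. Notch3 (5.79 CPM) and Rbfox3 (5.46 CPM) led the last pair of lists. The 5 immune markers summed to 157 CPM, with up to 10462 CPM in a cell, and the 6 fibroblast markers to 48.1 CPM, with up to 3042 CPM in a cell.

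Pregnancy cells carry no lineage label and were classed by the share of 189 basal and 190 luminal list genes found in each, lists from which all 8 genes, the other pathway genes described here and the milk protein genes had been left out. By this rule 35 cells were basal-marked, 30 were of the luminal class, 28 held both lists (mixed) and 3 neither. The study's basal list had held 5 of the 8 genes (Tenm2, Cacna2d1, Scn7a, Cacna1c and Kcnmb1), which is not independent evidence of their direction. Milk protein genes took 1.65% of reads in basal-marked, 33.4% in luminal-class and 26.0% in mixed cells. Endothelial, immune, fibroblast, pericyte or Schwann markers, 3 or more of a type, were found in 11 of the 35 basal-marked and 5 of the 30 luminal-class cells, against 1 of 85 adult basal and 6 of 41 adult luminal cells. Of those luminal cells, 5 held fibroblast markers, whose sum was 1852 CPM over adult luminal and 3188 CPM over basal-marked cells. Some of the results that leaving out such cells moves are also given without them.

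The stretches before start sites of Scn7a, Oxtr and Kcnmb1, 3 genes of different channel and receptor families, are shown as examples. Tenm2, Cacna2d1 and Kcnma1 had larger ratios of adult basal over luminal cells, and shared regulation was not tested. Each is the part of the 250 bases before a RefSeq start that lies outside annotated exons, read 5′ to 3′ on the gene's strand (build GRCm38.p6). The starts used for Oxtr and Kcnmb1 lie inside the gene spans given below. The Oxtr stretch is wholly within its gene's span, and the Kcnmb1 stretch ends within its own. Capitals mark the letters GGAATG, which are CATTCC, the MCAT motif bound by TEAD factors in muscle genes, on the opposite strand.
Scn7a, chr2:66784915-66785160, minus strand: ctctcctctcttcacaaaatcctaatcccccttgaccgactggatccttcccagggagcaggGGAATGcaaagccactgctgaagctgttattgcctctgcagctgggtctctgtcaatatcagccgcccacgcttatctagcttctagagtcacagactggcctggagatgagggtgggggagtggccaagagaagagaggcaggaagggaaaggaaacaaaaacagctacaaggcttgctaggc
Oxtr, chr6:112489944-112490075, minus strand: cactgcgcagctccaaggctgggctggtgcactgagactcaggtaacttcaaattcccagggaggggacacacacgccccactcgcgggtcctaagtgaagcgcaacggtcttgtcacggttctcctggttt
Kcnmb1, chr11:33962763-33963012, plus strand: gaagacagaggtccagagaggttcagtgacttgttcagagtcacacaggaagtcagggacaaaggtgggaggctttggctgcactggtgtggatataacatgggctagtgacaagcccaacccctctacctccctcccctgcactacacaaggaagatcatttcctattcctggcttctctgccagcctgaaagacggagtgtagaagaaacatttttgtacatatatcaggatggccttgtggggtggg
RefSeq promoters were at hand for 7 of the 8 genes, 9 start sites in all, and Itpr1 had no entry. Both strands of the 250 bases were searched for the CArG box of smooth muscle genes, CATTCC, the E-box CACGTG and TATAAA, which are found in 1.47%, 12.6%, 6.02% and 12.4% of 32851 mouse promoters. CATTCC was found before Scn7a only, from 188 to 183 bases ahead of the start, and CACGTG before Oxtr only, from 43 to 38 bases ahead, within an exon that was left out of the sequence above. Neither the CArG box nor TATAAA was found in any of the 9 windows, which says only that these letters are not in them.

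Oxtr (Entrez 18430; chr6:112473683-112491035), the receptor through which oxytocin makes myoepithelium contract, had reads in 80% of adult basal cells when each cell was thinned to 50000 reads (interval 69.9 to 87.9%) and in 84.7% at full depth. In adult luminal cells, the background for a basal gene, the thinned share was 7.32%. Its level over single adult basal cells ran from 0 through a median of 493 to 5234 CPM, and the summed level was 828 CPM. In luminal cells the sum was 23.4 CPM with a median of 0, and cell 8 held 524 of the 582 reads. That cell had no reads of Acta2, Krt5, Krt14 or Myh11. Without the cell holding most reads in each group, the log2 ratio of basal over luminal went from 5.14 (5.02 to 5.26) to 8.32.

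Itpr1 (Entrez 16438; chr6:108213083-108551116), which releases calcium from the endoplasmic reticulum, was higher in adult basal cells in sum but not restricted to them. It had reads in 43.5% of adult basal cells (32.8 to 54.7%) but also in 31.7% of adult luminal cells (18.1 to 48.1%), and these intervals overlap. Single basal cells held from 0 to 2022 CPM with a median of 4.76, and luminal cells from 0 to 795 CPM with a median of 0. The summed level was 118 CPM in basal and 41.1 CPM in luminal cells, a log2 ratio of 1.52 (1.42 to 1.62). It was the only one of the 8 below a 4-fold difference. Of its 1021 luminal reads, cell 40 held 436, and without the top cells the log2 ratio was 2.14.

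Cacna1c (Entrez 12288; chr6:118587240-119197384), the pore of the L-type channel Cav1.2, was the least often found of the 8. It had reads in 11.8% of adult basal cells (5.79 to 20.6%) and 2.44% of luminal cells, and its median over basal cells was 0 with a highest value of 727 CPM. The summed level was 9.13 CPM in basal cells (326 reads) and 0.242 CPM in luminal cells (6 reads), a log2 ratio of 5.24 (4.10 to 6.70), or 7.61 without cells that held markers of other types. The auxiliary subunit Cacna2d1 (Entrez 12293; chr5:15934264-16374511), which raises the number of channels at the membrane, was found far more often, in 61.2% of basal cells (50.0 to 71.6%). Its median over basal cells was 115 CPM and its highest value 3110 CPM. No read of it was found in the 41 luminal cells, which at 3 reads over the group gives a basal level at least 2266-fold higher, and the zero allows a share of luminal cells of up to 7.32% at 3 cells, or 8.60% by the exact interval.

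Scn7a (Entrez 20272; chr2:66673426-66784910), a sodium channel relative known from glia and sensory circuits as a sodium-level sensor rather than a voltage-gated channel, was the highest of the 8 in adult basal cells. It had reads in 87.1% of them (78.0 to 93.4%) and in 9.76% of luminal cells. Single basal cells held from 0 through a median of 1656 to 15020.4 CPM, and 80 of 85 had reads at full depth. The summed level was 2411 CPM in basal and 16.3 CPM in luminal cells, a log2 ratio of 7.21 (7.07 to 7.35). Luminal cell 33 held 377 of the 405 luminal reads, together with 205 reads of Krt14 and none of Acta2, Krt5 or Myh11. Without the top cells the log2 ratio was 10.94, and without cells that held markers of other types 12.65. The Schwann cell marker S100b had no reads in adult basal cells, whereas Sox10, also a factor of mammary epithelium, stood at 63.5 CPM there and 40.2 CPM in luminal cells.

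Kcnma1 (Entrez 16531; chr14:23292288-24005110), the BK channel pore, and Kcnmb1 (Entrez 16533; chr11:33962955-33973641), the beta subunit that makes the channel of smooth muscle more sensitive to calcium, were each found in a minority of basal cells. Kcnma1 had reads in 23.5% of adult basal cells (15.0 to 34.0%), with a median of 0 and a highest value of 2757 CPM, and cell 30 held 2129 of its 6477 reads. A single read was found among luminal cells, and the log2 ratio of 12.14 has an interval of 9.66 to 17.44. Kcnmb1 had reads in 16.5% of basal cells (9.31 to 26.1%), with a highest value of 648 CPM. All 146 luminal reads of Kcnmb1 were in cell 35, which was the luminal cell with all 6 basal markers and held 2839 reads of Acta2 and 638 of Myh11. The log2 ratio was 2.64 (2.40 to 2.90) with that cell and at least 8.21 without it, an alternative added after the data were seen.

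Tenm2 (Entrez 23964; chr11:36006656-37237053) had reads in 71.8% of adult basal cells (61.0 to 81.0%) and, once thinned, in none of the luminal cells, to which the same limits apply. Single basal cells held from 0 through a median of 119 to 2505 CPM. The summed level was 363 CPM against a single luminal read, which was also in cell 35, a log2 ratio of 13.14 with an interval of 10.66 to 18.44. Tenm2 and Kcnma1 thus both had a single luminal read against 12950 and 6477 basal reads, at very different shares of basal cells.

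**Figure D1:**
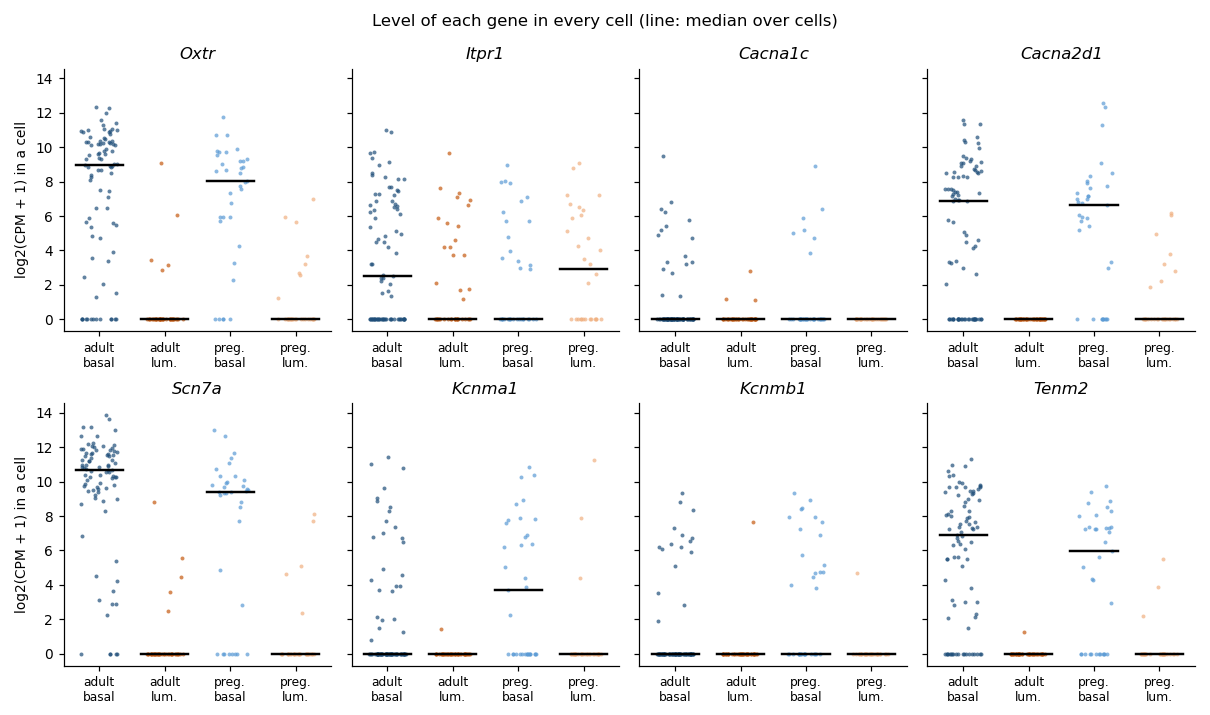
Level of each gene in every retained cell, on the scale log2(CPM + 1), for adult basal, adult luminal, pregnancy basal-marked and pregnancy luminal-class cells; each point is a cell and the line is the median. Scn7a and Oxtr have the highest medians in adult basal cells (1656 and 493 CPM), Kcnma1, Kcnmb1 and Cacna1c have medians of 0 there, and Itpr1 has cells with reads in all 4 groups.

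**Figure D2:**
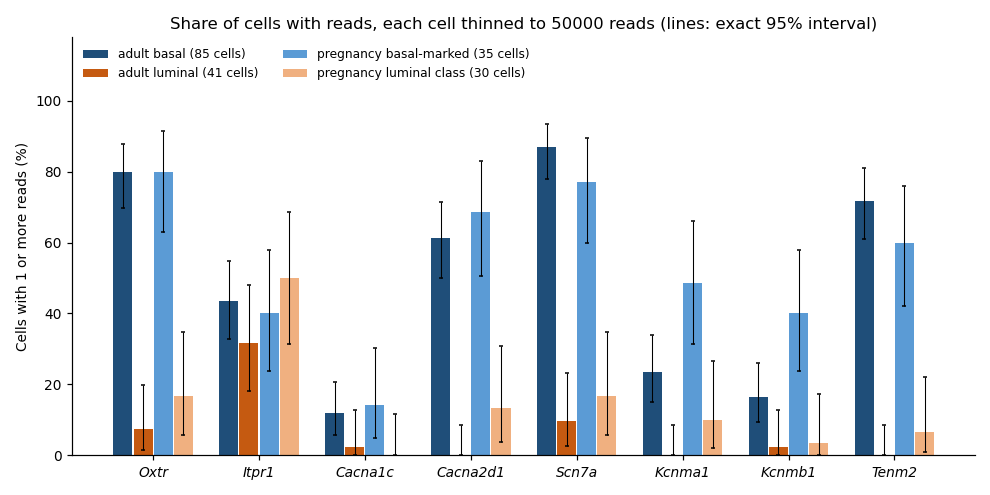
Share of cells with at least 1 read of each gene, in percent, after each cell was thinned to 50000 reads; bars are the 4 groups and lines the exact 95% intervals. Scn7a and Oxtr reach 87.1% and 80% of adult basal cells, and Itpr1 has luminal bars of 31.7% and 50%.

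Levels of different genes can be compared only per length of transcript. On the RPKM scale, CPM divided by the kilobases of exon, the order in adult basal cells was Scn7a (329), Oxtr (181), Tenm2 (37.2), Cacna2d1 (36.5), Kcnma1 (23.2), Itpr1 (12.0), Kcnmb1 (8.77) and Cacna1c (1.01). The counting intervals of the neighbours Tenm2 (36.6 to 37.9) and Cacna2d1 (35.8 to 37.3) overlap, and those of the other neighbours do not. Over single cells all 8 genes overlap, since each had cells without reads. In pregnancy basal-marked cells the order was Scn7a (129), Oxtr (88.9), Cacna2d1 (63.3), Kcnma1 (28.5), Kcnmb1 (16.0), Tenm2 (15.5), Itpr1 (4.40) and Cacna1c (2.65). There the intervals of Kcnmb1 (14.3 to 17.8) and Tenm2 (14.5 to 16.7) overlap. Scn7a and Oxtr came first and second, and Cacna1c last, in both stages.

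All of the genes but Itpr1, 7 of 8, were at least 4-fold higher in adult basal than adult luminal cells, where 14.8% of the 14356 genes compared lay that far on the basal side and 22.8% on the luminal side. The median log2 ratio of the 8 was 6.22, against -0.32 over all genes. As this contrast chose the genes, nothing is read from either value. Scaling by trimmed means (TMM) in place of totals moves every log2 ratio by 0.30 in this comparison, by -0.60 in pregnancy basal-marked over luminal-class cells and by -0.09 in pregnancy over adult basal cells.

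Scn7a was found with Oxtr in 60, Tenm2 with Scn7a in 56 and Tenm2 with Oxtr in 49 of 85 adult basal cells. These overlaps lie near the single shares. Oxtr was in 81.1% of the cells with Scn7a, against 80% of all adult basal cells. Tenm2 was in 75.7% of the cells with Scn7a and 72.1% of those with Oxtr, against 71.8% of all. At 50000 reads an adult basal cell held a median of 4 of the 8 genes, from 1 to 8, and 52 of 85 cells held at least 4. In adult luminal cells the median was 0, from 0 to 3, and 23 of 41 held none, although luminal cells had more genes detected at that depth (median 3401 against 2271). Over adult basal cells the number found went with the number of all genes detected (Pearson r = 0.65, Spearman rho = 0.63, 85 cells) and with the share of basal list genes (r = 0.65, rho = 0.61), measures that share each cell's library. Levels of single genes hardly went together. Over the 28 pairs, Pearson r of log2(CPM + 10) lay between -0.20 and 0.30 in adult basal cells and between -0.31 and 0.22 in the 35 pregnancy basal-marked cells, too weak in such sparse counts to be a finding.

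For partners that work as 1 complex or cascade, the share of cells with both was set beside the share among all cells. Of the 20 adult basal cells with Kcnma1 and the 14 with Kcnmb1, 5 had both, which is 25% of the first and 35.7% of the second (12.8 to 64.9%), where Kcnma1 was found in 23.5% and Kcnmb1 in 16.5% of all cells. A pore-forming calcium channel subunit was found in 23 of the 52 cells with Cacna2d1, 44.2% against 37.6% of all 85 cells. Of the 68 cells with Oxtr, 42 had Gnaq or Gna11, the G proteins it couples to (61.8% against 61.2% of all cells), and 41 had an inositol trisphosphate receptor (60.3% against 56.5%). A latrophilin was found in 30 of the 61 cells with Tenm2 (49.2% against 43.5%). The counting interval of each share holds the share among all cells.

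Among 3895 genes found in at least 20% of adult basal cells, a single gene reached a Pearson r of 0.5 with any of the 8. It was Map3k12, a kinase of the JNK pathway, with Kcnma1 (r = 0.52 over 85 cells). The nearest genes of the other 7 reached r from 0.39 to 0.46. As the highest value of 8 genes against 3895, between genes found in 23.5% and 22.4% of cells, the r of 0.52 is not read as a finding.

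**Figure D3:**
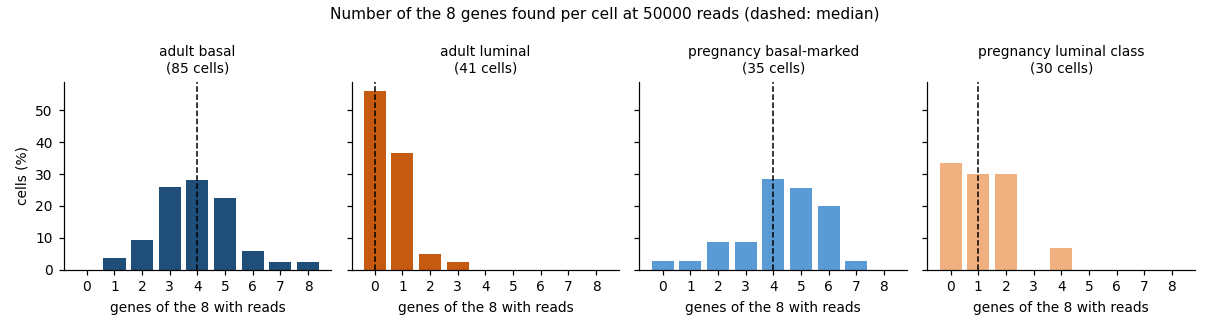
Percent of cells (vertical axis) by how many of the 8 genes had reads at 50000 reads per cell (horizontal axis), in 4 groups; the dashed line is the median. Both basal groups centre on 4 genes, adult luminal cells on 0 and pregnancy luminal-class cells on 1.

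Relatives of these genes in the same cells show which family members carried the reads. All list counts for adult cells are to be read beside the 14.8% of all genes at least 4-fold higher in basal and the 22.8% in luminal cells. Differences between lists were not tested. In adult basal cells Cacna1d, the pore of Cav1.3, stood at 4.04 RPKM, above Cacna1c at 1.01 RPKM, and the beta subunit Cacnb4 stood at 6.37 RPKM, with 50.2% of its reads in cell 30 (52.7 CPM, and 27.2 CPM without that cell). Cacna1d and Cacna1g, the pore of a T-type channel, had 1335 and 537 basal reads and no luminal read, and without the top cell 666 and 357. Of 24 further calcium channel genes, 7 could be compared, and 4 were at least 4-fold higher in basal and 1 in luminal cells. Of 14 further sodium channel genes, 5 could be compared, with 2 higher in basal and 1, Nalcn, which carries a leak current, in luminal cells (9.55 against 0.028 CPM), where all but 9 of the 237 reads were in cell 21 and the level without it was 0.375 CPM. The other BK subunits gave 1 gene higher in basal cells and 2 in luminal cells.

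Of 12 other potassium channels compared, 4 were at least 4-fold higher in basal and 6 in luminal cells, beside 14.8% and 22.8% of all genes. Kcnj2, an inward rectifier that holds the resting potential, had 1735 basal and no luminal reads, 849 without cell 64, and Kcnq5 had 815 against 2. Kcnn4, a calcium-activated channel of epithelia, had 2787 luminal and no basal reads, and Kcnk5 stood at 39.9 CPM in luminal and 0.112 CPM in basal cells. The luminal side also held Abcc8, the sulphonylurea receptor, at 72.3 CPM (45.0 CPM without cell 2).

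Along the oxytocin cascade 1 of 15 genes compared was at least 4-fold higher in adult basal and 1 in adult luminal cells, beside the 14.8% and 22.8% of all genes; the difference between lists was not tested. Gnaq stood at 45.1 RPKM in basal cells, and Itpr2 and Itpr3 at 2.11 and 0.828 RPKM, below Itpr1 at 12.0 RPKM. Oxt itself, the gene of the hormone, had no reads in adult basal cells. The gene on the luminal side was the signalling regulator Rgs4, whose 388 luminal reads were all in cell 43. Of 17 store and release genes compared, 5 were higher in basal cells, among them the junction protein Jph2, with 489 basal and no luminal reads (325 without cell 18), and Mrvi1, which binds inositol trisphosphate receptors in smooth muscle (74.4 against 4.19 CPM, the luminal reads all in cell 43). The calcium buffer Casq2 also had no luminal read, but 27 of its 1001 basal reads were outside cell 13. The 4 higher in luminal cells included the store-operated channel Orai1 (9.43 CPM, and 5.60 CPM without cell 40), phospholamban (Pln; 33.8 CPM, and 21.9 CPM without cell 19) and Ryr3 (10.4 CPM, and 1.46 CPM without cell 6).

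Of the teneurins and their partners, 3 of 8 compared were higher in basal and 2 in luminal cells, beside 14.8% and 22.8% of all genes. The latrophilin Adgrl3 had 1531 basal and no luminal reads and Tenm3 stood at 20.1 against 0.524 CPM, whereas Tenm4 (16.6 against 0.196 CPM) and Flrt2 (30.3 against 0.140 CPM), a ligand of latrophilins, were on the luminal side. Without their top luminal cells, 37 and 11, these stood at 3.64 and 16.1 CPM. Of 10 stretch and receptor operated channels, 3 were higher in basal cells, with Trpv4 at 31.3 against 0.121 CPM (18.2 CPM without cell 78), and 2 in luminal cells, with Piezo2 at 169 against 0.336 CPM and Trpc6 at 39.6 CPM against no basal read. Cacna1g, Kcnq5, Jph2, Mrvi1 and Tenm3 are in the study's basal list, and Kcnn4, Abcc8 and Piezo2 in its luminal list.

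In pregnancy, 7 of the 8 were found more often in basal-marked than in luminal-class cells. The matching share over all genes was not taken. In summed level, 36.0% of 13505 genes were lower in basal-marked cells, so most genes lean to that side. The classes were set without the 8 genes, but levels in basal-marked cells had been used to choose them. The shares and ratios between these classes are therefore descriptions too. Scn7a had reads in 77.1% of the 35 basal-marked cells (59.9 to 89.6%) and 16.7% of the 30 luminal-class cells (5.64 to 34.7%), and Oxtr in 80% (63.1 to 91.6%) and 16.7%. Tenm2 had reads in 60% and 6.67%, and Cacna2d1 in 68.6% and 13.3%. The BK genes were found in a larger part of these basal cells, Kcnma1 in 48.6% against 10% and Kcnmb1 in 40% against 3.33%. Cacna1c had reads in 14.3% of basal-marked and in none of the luminal-class cells, which allows a share of up to 10% at 3 cells, or 11.6% by the exact interval. Median depths were 131990 reads in basal-marked and 244479 in luminal-class cells.

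In summed level, 7 of the 8 were at least 4-fold higher in basal-marked cells, where 25.7% of 13505 genes lay that far on the basal-marked side and 11.6% on the luminal side. The log2 ratio was 6.56 (5.77 to 7.47) for Tenm2, 6.20 (5.81 to 6.63) for Cacna2d1, 5.85 (5.60 to 6.11) for Scn7a, 6.16 (5.74 to 6.61) for Oxtr and 6.49 (5.36 to 7.95) for Kcnmb1. Cacna1c had no luminal-class read and was at least 64.7-fold higher. Their median, Itpr1 and Kcnma1 included, was 6.09 against 0.64 over all genes. Kcnma1 had the smallest of these ratios, 3.16 (2.95 to 3.39), and 134 of its 201 luminal-class reads came from cell 88, a cell of 54296 reads. Without the top cells its log2 ratio was 4.42, and with every cell given equal weight it was 1.09.

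Itpr1 ran the other way in pregnancy. It had reads in 40% of basal-marked (23.9 to 57.9%) and 50% of luminal-class cells (31.3 to 68.7%). Its summed level was 43.4 CPM against 77.1 CPM, a log2 ratio of -0.83 (-1.06 to -0.60). Without the cells that held markers of endothelium, immune, stromal or Schwann cells the log2 ratio was 0.01. With milk protein genes left out of the totals it was -1.39. In both stages, then, Itpr1 had reads in cells of both lineages.

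The numbers in the titles of pregnancy cells run on from a first set up to 55 to a second above it, a division for which the labels give no meaning. In both sets 7 of the 8 genes were at least 4-fold higher in basal-marked than in luminal-class cells, where 21.2% and 26.8% of all genes lay that far, and the median log2 ratio was 4.52 up to 55 and 6.97 above it. Scn7a gave 3.27 (3.00 to 3.55) in the first set and 9.42 (8.64 to 10.33) in the second, and Oxtr 3.56 (3.09 to 4.06) and 9.15 (8.10 to 10.46). These ratios rest on few luminal-class reads, in 10 cells of the first set and 20 of the second. Scn7a had 119 and 13 such reads, with 55.5% of the 119 in cell 39, and Oxtr had 39 and 7. Itpr1 was lower in basal-marked cells of both sets, at -1.05 and -1.10.

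**Figure D4:**
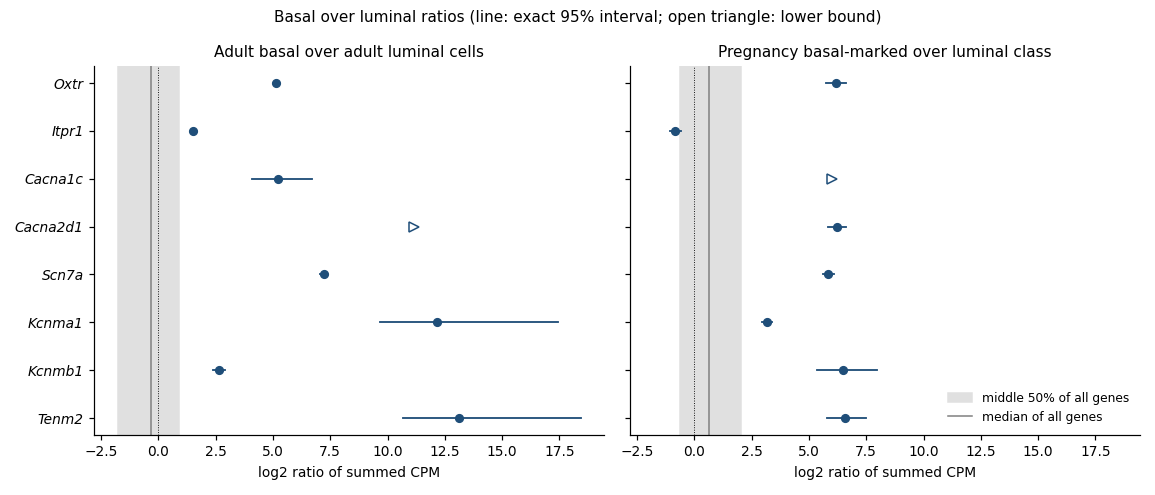
Log2 ratio of summed CPM (horizontal axis) of each gene for adult basal over adult luminal cells (left) and pregnancy basal-marked over luminal-class cells (right); lines are exact 95% intervals, open triangles lower bounds, the grey band the middle 50% of all genes and the grey line their median. All genes but Itpr1 lie right of the band in both panels, and Itpr1 lies right of it on the left (1.52) and left of it on the right (-0.83).

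Mixed cells, which held both lists, had a median of 4 of the 8 genes, as basal-marked cells did, whereas luminal-class cells had a median of 1 and 10 of 30 had none. The 3 unclassed cells had a median of 0.

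Between pregnancy basal-marked and adult basal cells the shares of cells with reads were close for the genes found most often. Oxtr stood at 80% in both, and Scn7a at 77.1% against 87.1%, with overlapping intervals. Kcnma1 (48.6% with an interval of 31.4 to 66.0%, against 23.5% with 15.0 to 34.0%) and Kcnmb1 (40% with 23.9 to 57.9%, against 16.5% with 9.31 to 26.1%) were found more often in pregnancy, and the intervals overlap for both. The number of the 8 genes per cell had a median of 4 in each, with 27 of 35 pregnancy cells holding at least 4.

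In summed level 4 of the 8 were at least 2-fold lower in pregnancy basal-marked cells, where 22.9% of 13841 genes lay that far down and 29.3% that far up. The choice of the genes used this contrast too, so nothing is read from that count. Without cells that held markers of other types, 11 of the 35, the count was 2, with Oxtr at -0.87 and Tenm2 at -0.95. Cacna2d1 (1.27) and Cacna1c (1.82) were then both at least 2-fold higher. Scn7a stood at 943 against 2411 CPM, a log2 ratio of -1.355 (-1.397 to -1.313), and Oxtr at 406 against 828 CPM, -1.03 (-1.09 to -0.96). Tenm2 stood at 151 against 363 CPM (-1.26, with -1.37 to -1.15) and Itpr1 at 43.4 against 118 CPM (-1.44, with -1.65 to -1.25). Of the rest, Cacna1c alone was at least 2-fold higher over all 35 cells, at 24.0 against 9.13 CPM (1.395, with 1.082 to 1.701). Of its 121 reads, 70 came from cell 25, without which and the top adult cell the log2 ratio was 0.58. Between these limits lay Cacna2d1 at 474 against 274 CPM (0.79, with 0.73 to 0.86), Kcnmb1 at 66.9 against 36.7 CPM (0.86, with 0.69 to 1.04) and Kcnma1 at 223 against 181 CPM (0.30, with 0.21 to 0.39). With mixed cells counted as basal-marked, these 3 turned to -0.46, -0.31 and -0.12. The median over the 8 was -0.36 against 0.06 over all genes. This comparison shares its adult cells with the adult basal to luminal comparison, and stage, sort and capture cannot be told apart in it.

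The sets by title number differ in this comparison. The 19 basal-marked cells up to 55 gave log2 ratios over adult basal cells of -2.16 for Scn7a, -1.95 for Oxtr, -1.22 for Cacna2d1 and -1.94 for Kcnma1. The 16 cells above 55 gave -0.69, -0.31, 1.81 and 1.35 in the same order. Cacna2d1 and Kcnma1 were thus lower than adult in one set and higher in the other. Tenm2 went the other way, at -0.81 and -2.25, and Itpr1 was lower in both (-1.16 and -1.96). Kcnmb1 was higher and nearly equal in both, at 0.85 (0.62 to 1.07) and 0.89 (0.63 to 1.14). The medians over the 8 genes were -1.19 and 0.13, with 5 and 2 of the 8 at least 2-fold lower, beside 24.3% and 35% of all genes.

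Just 3 cells carried most of the Cacna2d1 reads in pregnancy. Cells 84, 102 and 116, all numbered above 55, held 564, 360 and 973 of the 2391 reads, and cell 84 reached 6189 CPM where the median basal-marked cell held 97.3 CPM. Without the top cell of each stage the log2 ratio of Cacna2d1 went from 0.79 to 0.21. With pregnancy cells classed by the marker genes alone it was -0.46, and without cells carrying markers of other types it was 1.27. Its direction and size thus rest on which cells are counted. Scn7a, Oxtr, Tenm2 and Itpr1 were lower in pregnancy under every alternative tried, with log2 ratios from -2.17 to -0.69, from -1.95 to -0.31, from -2.25 to -0.81 and from -1.96 to -0.80. The alternatives draw on the same adult and pregnancy cells, and this contrast chose the genes, so nothing is read from their common direction.

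**Figure D5:**
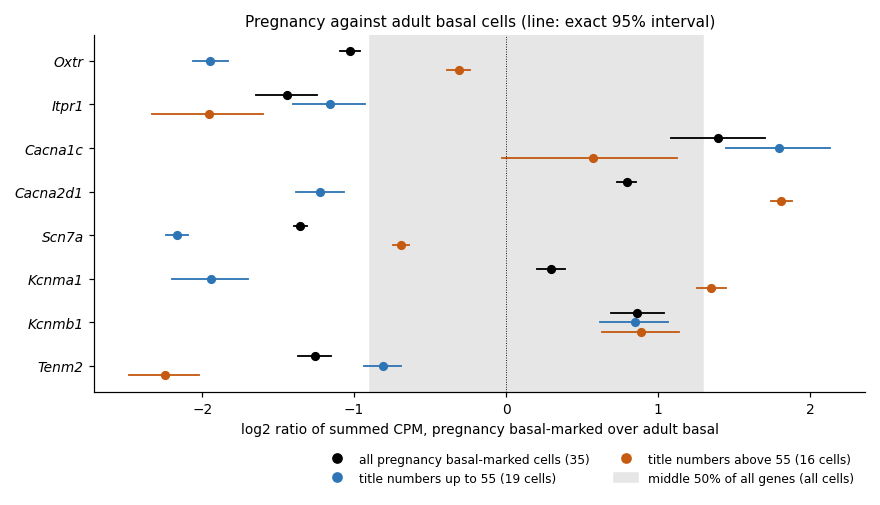
Log2 ratio of summed CPM (horizontal axis) in pregnancy basal-marked over adult basal cells for each gene, for all 35 cells and for the 19 and 16 cells with title numbers up to and above 55; lines are exact 95% intervals and the grey band is the middle 50% of all genes. Cacna2d1 (-1.22 and 1.81) and Kcnma1 (-1.94 and 1.35) fall on opposite sides of 0 in the 2 sets, and Kcnmb1 has nearly the same value in both (0.85 and 0.89).

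The pathway lists are read beside the 29.3% of all genes at least 2-fold higher and the 22.9% at least 2-fold lower in pregnancy basal-marked cells. Of the oxytocin cascade 6 of 16 genes compared were higher and 3 lower, of the store and release genes 6 of 18 and 2, of the potassium channels other than BK 6 of 11 and none, and of the stretch and receptor operated channels 3 of 10 and 6. Many of the named genes rest on few cells. All 122 basal-marked reads of Rgs4 and all 82 of Rgs5, a marker of pericytes, were in cell 47. Among the potassium channels counted as higher, Kcnj8 had 96.8% of its 63 basal-marked reads in cell 47 and Abcc9 had 75% of its 44 there. Without that cell they stood at 0.403 and 2.22 CPM in basal-marked cells. Ryr3 stood at 36.5 against 0.560 CPM, and at 2.54 against 0.084 CPM without the top cells, 86 in pregnancy and 69 in the adult. The phospholipase Plcb3 stood at 1.39 against 14.2 CPM (7 and 508 reads), and at 0.826 against 9.78 CPM without cells 2 and 55. P2rx7 and P2rx4, receptors for ATP, stood at 8.13 against 46.4 CPM and 11.7 against 37.0 CPM, and without their top cells (2 and 32 in pregnancy, 5 in the adult for both) at 3.72 against 28.6 CPM and 2.64 against 20.8 CPM.

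At the limit of 50000 reads, cells on either side held these genes. The last adult basal cell kept had 67170 reads and held 3 of the 8 genes, and the first left out had 46811 reads and held 6. The luminal cells beside the limit, with 173158 and 42413 reads, held 2 each. In pregnancy the last kept, with 53966 reads, held none, and the first left out, with 49505, held 3.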

How the data were processed

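The authors mapped read pairs to the mouse genome (mm10) with Subread 1.4.6 and assigned them to genes with featureCounts and a RefSeq annotation, and they deposited raw counts per Entrez gene for each cell. Libraries were made with Nextera XT after capture on the Fluidigm C1 and sequenced on a NextSeq 500, without molecular identifiers. Here 15 mitochondrial genes with 9.54% of the reads, 124 ribosomal protein genes or pseudogenes with 1.72%, and 1904 IDs that had lost their symbol, with 1.20%, were set aside, and cells with 50000 or more remaining reads were retained. No pair of libraries was identical. Retained cells summed to 35720745 reads in adult basal, 24825983 in adult luminal and 23192668 in pregnancy.

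Counts were summed over the cells of a group and divided by the group total (CPM), also per exon length (RPKM). Intervals were exact: Poisson for levels, Clopper-Pearson for shares and conditional binomial for ratios. Where a sum was 0, 3 counts over the group gave a bound. Shares were taken after thinning each cell to 50000 reads. Pregnancy cells were classed against the 10th percentile of adult cells (19.9% of basal and 16.8% of luminal list genes). With 1 sample per group there was no test. The scripts ran on Python 3.11.15 with scipy 1.17.1, and edgeR 4.0.16 gave TMM factors. They were tested on simulated data. Gene positions are from an annotation of GRCm38.p6, the build also called mm10.

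All 8 genes were named. Further genes were drawn from the 3 of each pathway list with the largest ratios in each direction, past the fold and at 5 CPM or more, and not all of these are named; RPKM values of family members, and genes shown for a class of proteins, were named beside them after their values were seen. The genes and lists were chosen with earlier results of these data known. Alternatives covered the filters, scaling, thinning, class rules, single cells and title numbers. Some genes of the pathway and marker lists that the naming rule would include are not reported here.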

Additional observations from a re-analysis of the deposited data

How the results depend on the processing

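No paired analysis was possible because the numbers in the titles name cells and no animal, and no result comes from a test. Depth limits the shares, since a gene with few molecules can be missed in a cell, and the counting intervals do not cover the spread between mice. No direction of a median or count reversed except the median of pregnancy over adult basal cells, described below; the causes of these moves were not tested unless the alternative itself (fewer cells or other totals) shows them.

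The count of genes at least 4-fold higher in adult basal than luminal cells stayed at 7 or 8, and that in pregnancy basal-marked over luminal-class cells at 6 or 7, under the alternatives run. The median number found per cell lay between 3 and 5 in both basal groups. The median log2 ratio of adult basal over luminal cells, 6.22, was 9.16 without the top cell of each gene and group and 9.27 without cells carrying markers of other types, and, in alternatives added after the data were seen, 7.62 with adult cells of their own class and 7.69 without the luminal cell with basal markers.

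The median of pregnancy basal-marked over luminal-class cells, 6.09, was 5.20 with the study's minimums on reads and genes. Those minimums kept all 85 adult basal and 96 pregnancy cells, and 39 of the 41 adult luminal cells, which set the luminal threshold of the classes. The median was 5.48 with TMM, 5.52 without milk genes, 5.45 with the 25th percentile threshold and 5.44 with classes from marker genes. For title numbers up to and above 55 it was 4.52 and 6.97.

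The median of pregnancy basal-marked over adult basal cells, -0.36, was -0.54 with the study's minimums, -0.45 with TMM, -0.16 with equal weight per cell, -0.47 without the top cells, -0.066 without cells carrying other markers, -0.55 with classes from marker genes, -0.73 with mixed cells counted as basal-marked, -1.19 for title numbers up to 55 and 0.13 above 55. The count at least 2-fold lower, 4, was 2 without cells carrying other markers and 2 for title numbers above 55.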
